A study of Mus musculus with 16 samples.

Results

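Gene expression in the lungs of wild-type mice was compared with gene expression in the heart of the same animals. The comparison used 6 of the 16 arrays in the series: lungs from 3 wild-type mice and heart from the same 3 mice, numbered 1592, 1624 and 1593 in the sample titles. The mice are the wild-type arm of a study of nuclear myosin 1 (NM1), a product of the Myo1c gene that works with RNA polymerase I in the nucleus, and the submitters chose lungs and heart as the tissues with the strongest NM1 expression. The series also holds lungs and heart of 3 NM1 knockout mice and skin fibroblasts of both genotypes, from mice with other numbers, 2 arrays each. The labels give the wild-type groups no treatment, and no strain, sex or age is named in them. Nothing but the tissue and the genotype defines the groups, and each array is 1 organ of 1 mouse, a mixture of all its cell types. The measurements are 45037 Affymetrix probe sets, groups of short probes that each report a transcript, as log2 values.

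Probe sets were kept when their mean in lungs or in heart lay above 3.79, the median of all values in the table, which left 24912 of 45037. The p-values measure only the spread between these 3 mice. Each probe set was tested for a difference within mice with limma, the mouse being a fixed block, and called when its Benjamini-Hochberg adjusted p was below 0.05. The probe set with the highest mean over the 6 arrays stands for a gene, among those that the array annotation gives exactly 1 gene, and 11318 of 17097 genes were kept. All differences below are lungs minus heart on the log2 scale, so that 1 unit is 2-fold and a negative value means higher in heart.

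The organs are built on different cells. Gas exchange in the lung takes place across flat alveolar type I cells laid on a dense capillary net, while alveolar type II cells secrete surfactant, a lipid and protein film that keeps the airspaces from collapsing. The conducting airways carry secretory club cells, which detoxify inhaled compounds, and ciliated cells, which move mucus. The heart is mostly cardiac muscle by mass: cells filled with sarcomeres, whose beat is set off by calcium release from the sarcoplasmic reticulum and paid for by mitochondria that burn mainly fatty acids.

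The defining markers of each tissue were high in all 3 arrays that carry its label and low in the others. Sftpc, surfactant protein C of type II cells, stood at 13.92, 14.06 and 14.13 in the lungs of mice 1592, 1624 and 1593 and at 4.13, 4.29 and 3.91 in their hearts. Ager, the receptor that marks type I cells, stood at 13.34, 13.59 and 13.67 in lungs and at 3.86, 3.20 and 3.11 in heart. Both markers were high in every lung array and close to the bottom of the scale in every heart array. Myl2, the ventricular myosin light chain, stood at 3.92, 3.71 and 4.14 in lungs and at 13.92, 13.83 and 13.92 in heart. Pln, phospholamban, the brake on the calcium pump of heart muscle, stood at 13.06, 13.19 and 13.12 in heart but at 8.22, 6.15 and 5.73 in lungs, the lungs of mouse 1592 being above the other lungs by over 2 units. Those lungs stood above the other lungs in several muscle, fat and airway transcripts. Pearson correlations over all probe sets lay between 0.983 and 0.993 among lungs, between 0.989 and 0.990 among hearts, and between 0.870 and 0.885 across the organs. No detection calls come with the table, so a value near 3 has no floor attached to it, and a difference whose lower side lies there is compressed by an unknown amount; the same holds at the top, where the highest value is 14.21.

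Most of the measured transcriptome differed between the organs. Of the 24912 kept probe sets 16118 (64.7%) were called, 9454 (37.9%) higher in lungs and 6664 (26.8%) higher in heart, and 4929 (19.8%) and 3733 (15%) differed by at least 1 unit. By gene the counts were 4578 of 11318 (40.4%) higher in lungs and 3173 (28.0%) higher in heart, and with a difference of at least 1 unit they were 2581 (22.8%) and 1848 (16.3%). The large differences were more evenly split: 422 genes in lungs and 359 in heart passed 3 units, and 90 and 116 passed 5 units. Of the genes past 1 unit the dimmer organ lay below the filter value for 707 of the 2581 lung genes and 309 of the 1848 heart genes, and the 3 lungs and 3 hearts overlapped for 16 and 11 of them. Array medians were 3.86 to 3.91 in lungs and 3.75 to 3.79 in heart, and the median difference of kept probe sets was 0.19, which quantile normalization of the arrays reduced to 0.04. Small differences are best read against that shift. The 95% interval of the difference had a median half-width of 0.36 units, and for 3251 of the 3567 uncalled genes it lay within 1 unit on both sides. Because so many genes were called, a count of called genes in a list below carries little by itself, and it is read against the background shares of 40.4% and 28.0%. In 1659 of the 11318 kept genes 1 organ lay below the filter value; such a gene was kept through the organ where it is high, so its direction was largely set by the filter, and lists made mostly of such genes are marked as such. List medians are taken over all measured members, kept or not.

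**Figure D1:**
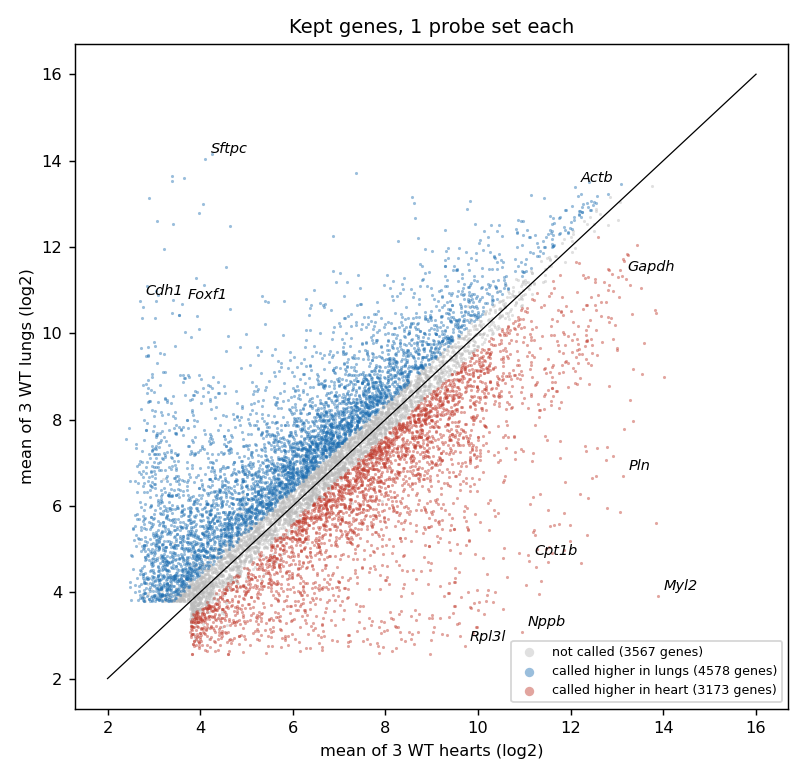
Mean log2 value of the 3 WT lungs (vertical) against the mean of the 3 WT hearts (horizontal), 1 point for each of the 11318 kept genes, with the line of equal values. Blue points were called higher in lungs (4578), red points higher in heart (3173) and grey points were not called (3567); the surfactant gene Sftpc lies far above the line and the myosin light chain Myl2 far below it.

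The largest differences in favour of lungs were airway and alveolar products, and the largest in favour of heart were contractile proteins and cardiac hormones. Cyp2f2, the club cell cytochrome P450 that activates inhaled hydrocarbons, led with 10.26 (SE 0.18, adjusted p = 2.6e-05), a ratio of 1224 on the linear scale. It was followed by the surfactant protein genes Sftpa1 (10.23), Sftpc (9.93) and Sftpd (9.54), the type I cell gene Ager (10.15), the club cell secretoglobins Scgb3a2 (9.93) and Scgb1a1 (9.89), the lung chemokine gene Cxcl15 (9.11), Sec14l3 (8.92), Wfdc2 (8.80), the phosphate transporter gene Slc34a2 (8.74) and Chil3 (8.24), a chitinase-like protein of alveolar macrophages. On the heart side Myl2 led with -9.97 (SE 0.13, adjusted p = 2.4e-05), a ratio of 1001. The next were the light chain gene Myl3 (-8.24), the natriuretic peptide genes Nppb (-7.86) and Nppa (-7.20), Mybpc3 of the thick filament (-7.53), the skeletal actin gene Acta1 (-7.36), Lrrc2 (-7.11), the muscle creatine kinase gene Ckm (-7.02), the ribosomal protein paralog Rpl3l (-6.96), the formin gene Fhod3 (-6.93), Fhl2 (-6.87) and Apobec2 (-6.87). In none of these 24 genes did a lung value overlap a heart value. Nppa had the widest spread, with 9.99, 4.37 and 3.22 in the lungs of mice 1592, 1624 and 1593 against 13.15, 12.44 and 13.60 in heart.

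**Figure D2:**
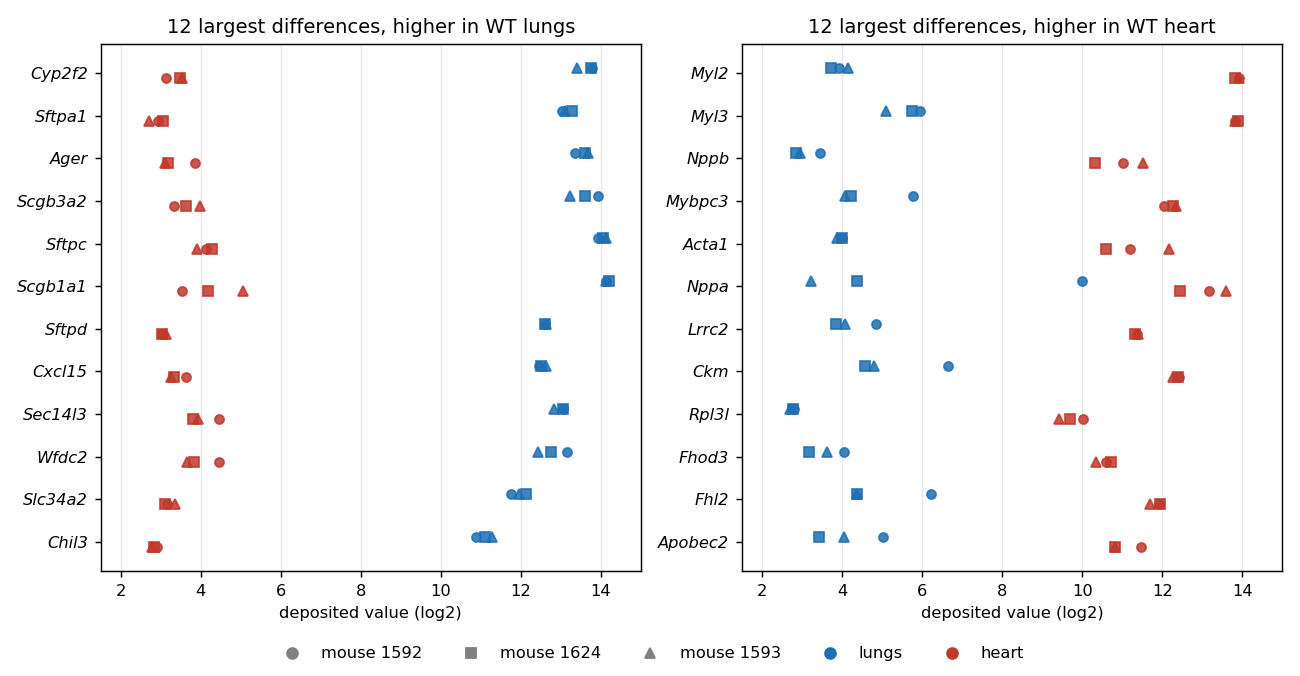
Log2 values of the 12 genes with the largest called difference in each direction, 1 symbol per array, blue for lungs and red for heart, with the symbol shape giving the mouse. The lung genes of the left panel separate into 2 tight clusters, while in the right panel the lungs of mouse 1592 lie to the right of the other lungs for Nppa (9.99) and Ckm (6.64).

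For 3 genes of each direction the promoter is shown, since these are the genes the comparison turns on: the first of the genes above that have a single RefSeq promoter (build GRCm38.p6), which passed over Myl2 with more than one. Each line gives the 250 bases before the annotated start, 5′ to 3′ along the gene, all on the plus strand. They lie at chr7:27119705-27119954 for Cyp2f2, chr14:41131538-41131787 for Sftpa1, chr17:34597600-34597849 for Ager, chr9:110763428-110763677 for Myl3, chr4:147985650-147985899 for Nppb and chr2:91117894-91118143 for Mybpc3. Capitals mark matches, on either strand, to short motifs of factors that act in these tissues: TATAAA, the core promoter box; AGATAA, read by GATA factors; CAAGTG, read by NKX2 factors; TGTTTAC, read by forkhead factors; CATTCC, read by TEAD factors; AAGGTCA, read by estrogen-related receptors; GTTGCC, read by RFX factors. The MEF2 motif, the NRF1 motif and the CArG box bound by serum response factor were searched as well.
Cyp2f2: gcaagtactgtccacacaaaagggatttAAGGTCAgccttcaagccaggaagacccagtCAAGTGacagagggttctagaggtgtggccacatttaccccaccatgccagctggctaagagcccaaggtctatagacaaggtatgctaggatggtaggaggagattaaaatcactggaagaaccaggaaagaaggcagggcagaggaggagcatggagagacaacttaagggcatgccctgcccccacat
Sftpa1: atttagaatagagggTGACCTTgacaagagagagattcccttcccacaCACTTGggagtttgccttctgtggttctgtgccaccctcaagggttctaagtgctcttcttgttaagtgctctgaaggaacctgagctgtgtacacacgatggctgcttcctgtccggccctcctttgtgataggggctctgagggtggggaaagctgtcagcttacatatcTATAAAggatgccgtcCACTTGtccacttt
Ager: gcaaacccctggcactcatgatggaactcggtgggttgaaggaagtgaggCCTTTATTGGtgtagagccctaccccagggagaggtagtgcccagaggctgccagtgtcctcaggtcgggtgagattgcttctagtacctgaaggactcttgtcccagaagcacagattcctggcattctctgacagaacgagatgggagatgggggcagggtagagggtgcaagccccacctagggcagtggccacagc
Myl3: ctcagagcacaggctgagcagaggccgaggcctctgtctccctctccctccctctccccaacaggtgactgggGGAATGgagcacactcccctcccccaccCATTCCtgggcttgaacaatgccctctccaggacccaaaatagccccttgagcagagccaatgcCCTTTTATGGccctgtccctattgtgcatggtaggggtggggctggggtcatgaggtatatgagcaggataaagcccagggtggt
Nppb: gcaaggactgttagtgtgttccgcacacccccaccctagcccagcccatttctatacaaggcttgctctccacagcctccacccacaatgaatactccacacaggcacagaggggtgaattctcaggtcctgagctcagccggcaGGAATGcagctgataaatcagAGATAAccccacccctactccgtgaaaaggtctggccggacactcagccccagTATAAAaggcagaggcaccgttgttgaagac
Mybpc3: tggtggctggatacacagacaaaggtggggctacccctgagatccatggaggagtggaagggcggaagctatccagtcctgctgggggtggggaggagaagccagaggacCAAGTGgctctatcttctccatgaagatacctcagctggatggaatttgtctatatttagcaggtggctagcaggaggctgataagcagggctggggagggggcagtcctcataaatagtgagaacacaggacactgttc
No 2 marked matches overlapped in these 6 windows. The Sftpa1 and Nppb windows held TATAAA beginning 30 and 31 bases before the start. The Sftpa1 window also held CACTTG, the reverse complement of the NKX2 motif, at 14 and at 202 bases before the start, and the Cyp2f2 and Mybpc3 windows held 1 CAAGTG each. The Myl3 window held a CArG box 85 bases before the start and TEAD motifs on both strands, and the Ager window held a CArG box 200 bases before the start. Over 22862 single promoters of the same length, 13.6% held the TATA motif, 11.7% the NKX2 motif, 12.6% the TEAD motif and 1.38% a CArG box. Among 22 sarcomere promoters 5 (22.7%) held a CArG box and 8 (36.4%) a TEAD motif, and among 20 promoters of motile cilia genes 7 (35.0%) held the RFX motif, which 10.5% of all promoters held. The NRF1 motif was in 4 of 57 respiratory chain promoters (7.02%) and 0.761% of all. Among 14 surfactant and type II promoters 4 (28.6%) also held the TEAD motif. In the same 14 the estrogen-related receptor motif was in 3 (21.4%), against 4.05% of all and 0 of the 22 sarcomere promoters. The GATA motif was in 2 of the 22 sarcomere promoters (9.09%) and 10.4% of all. For the 254 promoters of genes at least 3 units higher in lungs and the 218 at least 3 units higher in heart the shares were 10.2% and 17.0% for TEAD, 0.787% and 6.88% for MEF2 against 4.09% of all, and 19.3% and 12.4% for RFX. These shares are descriptions of letters in a window, with no test, and the motifs were chosen after the differences were known.

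Genes of the alveolar lining were higher in lungs almost without exception. Of 21 kept genes of surfactant and type II cells, 10 lay below the filter in 1 organ, so the filter largely set their direction. Among the 21, 20 were called higher in lungs, with a median difference of 4.10 against -0.01 over all 17097 genes. Beside the surfactant proteins these included Lpcat1, which makes the saturated surfactant phospholipid (4.55), and Abca3, which pumps it into lamellar bodies (4.10). Cd36, a fatty acid transporter that endothelium and heart muscle also make, was the exception at -0.45 (adjusted p = 0.026), with a value of 0.067 without mouse 1592 and 0.14 without mouse 1624. All 17 kept type I cell genes, 5 of them below the filter in 1 organ, were called higher in lungs, with a median of 4.22. Examples are Cldn18 of tight junctions (7.94), the water channel gene Aqp5 (7.04) and Igfbp2 (6.89). Krt7 was higher in lungs by 5.53, but its 3 hearts were uneven at 7.31, 4.44 and 4.24, and the mesothelial list was highest in that same heart, of mouse 1592.

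Airway transcripts were higher in lungs as well, with large differences between the 3 lungs. Of 19 kept genes of airway secretory cells 16 were called higher in lungs and none higher in heart (median 4.70), 12 of the 19 lying below the filter in 1 organ, the uncalled ones being Muc5ac, Reg3g and Agr2. The lung count was 12 of 19 without mouse 1624, 17 of 17 without mouse 1592 and 17 of 19 without mouse 1593. Scgb1a1 was even, at 14.12, 14.21 and 14.12 in lungs, near the top of the scale. Genes of the larger airways and their glands were not: Scgb3a1 stood at 13.78, 10.49 and 8.07 in the lungs of mice 1592, 1624 and 1593, and Bpifa1, a secreted defence protein of the upper airway, at 13.85, 8.91 and 6.24. Both still lay above every heart value, which ran from 2.64 to 3.54. The list median followed the same order, 6.92, 4.65 and 3.70. Ciliated cell genes were called higher in lungs for 25 of 25 kept genes, but 19 of them were below the filter in heart and so were kept through lungs alone; over all 26 measured the median was 2.71, and their medians were 3.79, 2.40 and 1.88 in the 3 mice. Foxj1, the master factor of motile cilia, stood at 8.39, 7.54 and 6.50 in lungs and between 2.86 and 3.30 in heart, and the cilium gene Ak7 differed by 5.99. How much airway each lung sample contained was not recorded, so fewer cells of a type and less of their RNA per cell cannot be told apart here or in any list below.

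Most epithelial structure, transport and detoxification genes were higher in lungs as well. Among 29 kept genes of epithelial adhesion and keratins 26 were called higher in lungs and none in heart (median 3.41), with 20 of the 29 below the filter in 1 organ. They were led by Cdh1, E-cadherin, at 10.63, 10.85 and 10.78 in lungs and 2.75, 2.56 and 2.82 in heart (8.04, SE 0.14). Epcam differed by 6.24 and the tight junction genes Cldn3 and Cldn7 by 6.35 and 6.02. Of 26 kept genes of ion and water transport 20 were higher in lungs, among them Scnn1g (5.32) and Scnn1b (4.33), subunits of the epithelial sodium channel that clears fluid from the airspaces. The 4 called higher in heart were Car14, a membrane carbonic anhydrase (-3.72), the sodium pump regulator Fxyd1 (-2.71), the potassium channel gene Kcnq1 (-1.13) and the bicarbonate transporter gene Slc4a4 (-0.64, adjusted p = 0.030, lost without mouse 1624 at 0.16 and without mouse 1593 at 0.11). Xenobiotic and antioxidant enzymes were found on both sides. The cytochrome Cyp2b10 (7.70), the aldehyde dehydrogenase gene Aldh1a7 (7.38) and the carbonyl reductase gene Cbr2 (6.35) were among 32 of 49 kept genes higher in lungs. The 8 higher in heart were Ephx2, the soluble epoxide hydrolase (-5.98), Nqo1 (-2.56), Gpx4, Prdx2, and 4 mitochondrial antioxidant genes, Prdx3 (-2.18), Sod2 (-1.99), Txn2 and Txnrd2. Ephx2 was uneven in lungs, at 6.30, 4.12 and 4.29, with mouse 1592 the highest.

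Transcription factors of the 2 lineages separated in both directions. Of 28 kept lung factors, 11 of them below the filter in 1 organ, 25 were called higher in lungs and Gata6 higher in heart (median 2.49). Foxf1, the mesenchymal forkhead factor, stood at 10.29, 10.75 and 10.99 in lungs and 3.85, 3.28 and 3.71 in heart, a difference of 7.06 (SE 0.23). The epithelial factors Foxa1 (6.60), Sox2 (5.35) and Elf5 (4.85) and the mesenchymal T-box factors Tbx4 (5.09) and Tbx2 (4.71) were also higher in lungs. The probe set for Nkx2-1, the defining factor of lung epithelium, lay below the filter in both organs (0.47), so its difference was not tested. Of 28 kept heart factors, 9 of them below the filter in 1 organ, 21 were higher in heart (median -1.34). Among the 21 were Tbx20 (-5.82), Smyd1 (-5.60), Myocd (-5.10), Nkx2-5 (-3.90) and Gata4 (-3.31), with the metabolic regulators Esrrg (-4.43) and Ppargc1b (-4.59). Gata6, which both organs need, was high in both and called higher in heart by 1.27. Tbx5, active in both organs during development, was not called. The 3 heart factors higher in lungs were Nr2f2, which venous endothelium also makes (1.63), Prdm16 (0.97) and Hopx, also a type I cell gene (0.91).

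Hox genes, which encode position along the body axis, passed the filter mostly through lungs and from the lower paralog groups. Of 27 measured Hox genes 8 passed the filter, 6 of them in 1 organ alone, and 7 were called higher in lungs. Hoxa5 stood at 8.01, 8.32 and 8.35 in lungs and 2.71, 2.99 and 3.17 in heart (5.27, SE 0.12). Hoxb5 (2.93), Hoxb3 (2.08), Hoxb4 (1.78), Hoxb2 (1.65), Hoxa7 (0.84, adjusted p = 0.011 and 0.072 without mouse 1624) and Hoxa4 (0.74) were also higher in lungs. The 19 genes below the filter included every measured member of paralog groups 8 to 10, so the list median was -0.08.

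Endothelial transcripts were mostly higher in lungs, while pericyte and smooth muscle genes were divided. Of 44 kept endothelial genes 31 were called higher in lungs and 4 higher in heart (median 1.37), or 2 higher in heart without mouse 1624. Calcrl, the adrenomedullin receptor (3.93), Cldn5 of endothelial tight junctions (3.76), Clec14a (3.42) and Car4, a carbonic anhydrase of lung capillaries (3.26), led. The 4 higher in heart were Prox1, which heart muscle and lymphatic endothelium make (-4.67), Tcf15 of heart capillaries (-2.31), Fabp4 (-3.18) and Cd36. Fabp4, a fatty acid carrier of capillaries and fat cells, stood at 11.97, 7.95 and 7.85 in lungs and 12.23, 12.60 and 12.48 in heart, and its adjusted p of 0.028 became 0.15 without mouse 1624 and 0.11 without mouse 1593. Pericyte genes were called higher in lungs for 6 of 10 and higher in heart for Rgs5 (-4.98), the channel gene Kcnj8 (-2.61) and Vtn (-1.43). The heart count of 3 of 10 lay near the background share of 28.0%. Of 16 kept smooth muscle genes 7 were higher in lungs and 4 in heart, near the background shares, with Itga8 (3.71) and the light chain kinase gene Mylk (3.22) higher in lungs. The 4 higher in heart, Pln, Synpo2, Tpm1 and Des, are also genes of heart muscle, and the smooth muscle actin Acta2 (0.12, adjusted p = 0.67) and myosin Myh11 were not called.

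Stromal genes were higher in either organ according to the gene. Of 23 kept fibroblast genes 15 were higher in lungs, led by Npnt, an integrin ligand of alveolar basement membrane (6.46), Mfap4 of elastic fibres (4.49) and Inmt, a methyltransferase (4.40). Lum, a small proteoglycan of collagen fibrils, stood at 6.76, 5.56 and 6.06 in lungs and 10.19, 9.78 and 10.78 in heart, and the fibulin gene Fbln1 was also higher in heart. Dcn, another small proteoglycan, differed by -1.17 (adjusted p = 0.025, but 0.12 without mouse 1624 and 0.075 without mouse 1593). Of 24 kept collagen genes 15 were called higher in lungs, a count that dropped to 9 without mouse 1624. The basement membrane chains Col4a3 (4.57) and Col4a4 (3.20), which occur together in alveolar and kidney basement membranes, were the clearest, and the fibril genes Col1a1, Col3a1, Col5a1 and Col5a2 were not called. Col15a1, of muscle and capillary basement membranes, was higher in heart by 2.13. Laminins divided likewise: the epithelial chain Lama3 was higher in lungs (4.41), and the muscle chain Lama2 (-2.08) and Lamb2 (-1.49) were higher in heart.

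Immune transcripts were mostly higher in lungs, with macrophage genes called in both directions. Of 23 kept macrophage genes 15 were called higher in lungs and 6 higher in heart (median 1.13). The heart count lay near the background share of 28.0%, so it says little about the list as such. Among the 23 genes, 8 lay below the filter in 1 organ. Genes known from alveolar macrophages were on the lung side: Chil3 stood at 10.89, 11.10 and 11.28 in lungs and 2.92, 2.83 and 2.79 in heart, and Plet1 (5.02) and Atp6v0d2 (3.22) followed. Genes known from interstitial resident macrophages were on the heart side, with Cd163 (-2.23), Folr2 (-2.07), Msr1 and the complement genes C1qa, C1qb (-1.40) and C1qc (-1.33). The pan-macrophage genes Csf1r and Adgre1 were not called. Antigen presentation and B cell genes were higher in lungs for 18 of 21 kept, 10 of the 21 having passed the filter in 1 organ alone (median over 27 measured 1.05), among them Jchain of antibody-secreting cells (5.19), Ms4a1 (2.76) and the class II invariant chain gene Cd74 (2.49). T and NK cell genes were higher in lungs for 9 of 13 kept, with Gzma (2.96) and Ccl5 (2.77), but 10 of the 13 passed the filter in 1 organ alone and the median over 23 measured genes was 0.22. The interferon-stimulated list was higher in lungs for 20 of 26 kept (median 0.93), while Rsad2 (-1.71) and Oas2 (-1.09) were higher in heart. Among cytokines Il33 (3.06) and Il18 (2.53), alarm signals of barrier tissue, were higher in lungs, and Il15 stood at 4.45, 4.48 and 4.57 in lungs and 8.04, 8.91 and 8.44 in heart (-3.96). Complement component gene Hc was higher in lungs by 7.80 and Masp1 of the lectin pathway higher in heart by 3.38. In the neutrophil and mast cell list 11 of 20 measured genes lay below the filter. Ltf, an antibacterial protein that airway glands also secrete, stood at 11.59, 5.42 and 4.55 in lungs (3.94, adjusted p = 0.045, but 0.096 without mouse 1624).

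Genes of the contractile apparatus formed the strongest heart group. Of 38 kept sarcomere genes 37 were called higher in heart, with a median of -5.37. Mybpc3, which tunes the thick filament, stood at 12.05, 12.27 and 12.33 in heart and at 5.77, 4.21 and 4.07 in lungs. The alpha-actinin gene Actn2 of the Z disc stood at 11.54, 11.63 and 11.73 in heart and at 6.69, 4.80 and 5.18 in lungs. In both genes the lungs of mouse 1592 were above the other lungs by over 1.5 units but still far below every heart. The list median was -4.00 in mouse 1592, -5.53 in mouse 1624 and -5.70 in mouse 1593, and 37 of 38 kept genes were called higher in heart without mouse 1592, 33 of 38 without mouse 1624 and 36 of 37 without mouse 1593. The 1 gene higher in lungs was Synm, an intermediate filament protein of smooth muscle as well (2.27). The Myh7 probe set was higher in heart by 4.50, but Myh6, the major adult mouse heavy chain, is nearly identical in sequence, and signal from the 2 genes cannot be told apart here.

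Calcium handling and electrical genes followed the sarcomere. Of 27 kept genes of calcium handling 23 were higher in heart (median -3.27), with Hrc (-6.81), Pln (-6.42), the junction protein gene Trdn (-6.21), the release channel gene Ryr2 (-6.15) and the calcium buffer gene Casq2 (-6.02). Casq2 stood at 11.58, 11.50 and 11.56 in heart and 7.03, 4.88 and 4.69 in lungs. The 3 higher in lungs were the plasma membrane pump gene Atp2b1 (1.22), Bin1 (1.06) and Fkbp1b (1.11, adjusted p = 0.0082, but 0.062 without mouse 1624). All 17 kept cardiac ion channel genes were higher in heart, but 11 of them were below the filter in lungs and so were kept through heart alone. The median over 19 measured was -2.61, the largest difference being Kcnip2 (-5.95), a subunit of the transient outward current, followed by the acetylcholine-gated channel genes Kcnj3 (-5.08) and Kcnj5 (-4.77). Kcnip2 was low in every lung, at 3.30, 2.96 and 2.97, where a gap between lungs may be compressed. In lungs Kcnj3 read 3.75, 2.83 and 3.01 and Kcnj5 4.08, 3.24 and 3.34, mouse 1592 being the highest in both.

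Junction and membrane anchor genes were divided between the organs. In the intercalated disc list 10 of 20 kept genes were higher in heart and 5 in lungs (median -0.41). Cdh2, N-cadherin (-5.77), Xirp1 (-5.23), the ankyrin gene Ank2 (-4.93), the connexin gene Gja3 (-4.85) and the desmocollin gene Dsc2 (-4.66) were on the heart side. Gja4, an arterial endothelial connexin (1.79), Tjp1 of tight junctions (1.32), Cxadr (1.22), Ctnnb1 (0.94) and Vcl (0.73, adjusted p = 0.017, but 0.097 without mouse 1624 and 0.073 without mouse 1593) were on the lung side. In the dystrophin complex and costamere list 10 of 15 kept genes were higher in heart, such as Itgb1bp2 (-6.36), the sarcoglycan gene Sgca (-5.79) and the muscle caveolin gene Cav3 (-5.22). Dtna was called higher in lungs (1.42) by its brightest probe set, but 3 of its 5 other kept probe sets were called higher in heart, so it has no settled direction.

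Cardiac hormones were higher in heart, and the atrial genes among them varied between samples of both organs. Nppb stood at 11.01, 10.31 and 11.52 in heart and 3.45, 2.86 and 2.95 in lungs. In the list of natriuretic peptides and heart stress 10 of 19 kept genes were higher in heart, including Corin, the protease that activates the peptides (-5.75). Another 7 were higher in lungs, including the endothelin gene Edn1 (2.68), Fhl1 (1.63) and Ace, the angiotensin-converting enzyme (1.30). That lung count lay near the background share of 40.4%, so it says little about the list as such. It was 3 without mouse 1624 and 3 without mouse 1593. Of 14 kept atrial genes 11 were higher in heart and Nr2f2 higher in lungs, with medians of -1.19, -0.75 and -2.25 in mice 1592, 1624 and 1593, and the heart count dropped to 6 without mouse 1624. Among the 14 genes, 5 lay below the filter in 1 organ. Myl4, the atrial light chain, stood at 11.79, 10.45 and 12.62 in heart and 10.60, 8.60 and 8.60 in lungs, so the organs overlapped (-2.35, adjusted p = 0.014, but 0.054 without mouse 1624). Fgf12 stood at 6.19, 3.98 and 7.90 in heart. The amount of atrium in each heart sample was not recorded, and its part in these values was not tested.

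Nearly all mitochondrial genes were higher in heart. All 33 kept complex I genes were called higher in heart, with a median of -2.38 and a range from -3.49 (Ndufs1) to -1.19. Ndufs1, the largest subunit, stood at 11.76, 11.86 and 11.64 in heart and 8.59, 8.18 and 8.01 in lungs. Of 41 kept genes of complexes II to V 39 were higher in heart (median -2.11), and the largest differences belonged to the muscle isoforms Cox7a1 (-5.85), Cox8b (-5.76) and Cox6a2 (-5.23). In lungs Cox7a1 read 8.14, 5.88 and 6.07 and Cox8b 8.90, 6.07 and 6.50, mouse 1592 being above the others in both. Cox6a1, the general isoform, was called higher in lungs by 0.41 (adjusted p = 0.036), a call lost without any 1 of the 3 mice (0.084 to 0.12). All 60 kept mitochondrial ribosome genes were higher in heart, with a median of -1.63 and per-mouse medians of -1.65, -1.66 and -1.51; without mouse 1592 the count was 59, and without either other mouse 57. Import and quality control genes were higher in heart for 27 of 31, led by Perm1, a muscle regulator of oxidative genes (-6.28), Coq9 of ubiquinone synthesis (-3.95) and the fusion gene Mfn2 (-3.36). The exception was the sodium-calcium exchanger gene Slc8b1 (0.74).

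Fuel oxidation genes were higher in heart down each pathway. For the tricarboxylic acid cycle and pyruvate oxidation 26 of 30 kept genes were higher in heart (median -2.44), with Pdk4 (-5.06) and Pdk2 (-3.73), kinases that switch off pyruvate oxidation, and the dehydrogenase genes Idh2 (-3.25) and Idh3a (-3.22). The 3 higher in lungs were Me2 (1.98), Pdk3 (1.82) and Pcx (0.86, adjusted p = 0.042, but 0.075 without mouse 1592 and 0.14 without mouse 1624). For fatty acid uptake and oxidation 29 of 35 were higher in heart (median -2.79). Cpt1b, the muscle gate for fatty acid entry into mitochondria, stood at 11.06, 11.18 and 11.05 in heart and 5.56, 4.29 and 4.33 in lungs. Fabp3 (-5.38), Plin5 of lipid droplets (-4.44) and Etfdh (-4.27) followed. The 3 higher in lungs were all long-chain acyl-CoA synthetases, Acsl5 (3.17), Acsl4 (2.94) and Acsl3 (2.34). For glucose transport and glycolysis 22 of 31 were higher in heart (median -1.59): the muscle isoenzymes Pgam2 (-6.41), Eno3 (-5.82) and Pygm (-5.77), and the insulin-regulated transporter gene Slc2a4 (-5.26). The 5 higher in lungs were Pfkfb3, which raises glycolytic flux (2.62), the liver-type phosphorylase gene Pygl (2.30), Aldoc (1.93), Slc2a3 (1.06) and Pgm2. Energy transfer genes were higher in heart for 14 of 17, with Ckm and the mitochondrial creatine kinase gene Ckmt2 (-6.85), while Ckmt1, its non-muscle isoform, was higher in lungs by 2.50. The lungs of mouse 1592 were again the highest lungs for Pdk4 (7.55, 5.72 and 5.54 in mice 1592, 1624 and 1593), Pgam2 (7.08, 5.06 and 4.54) and Ckmt2 (7.42, 5.03 and 5.39).

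Most lipid synthesis genes were higher in lungs. Of 23 kept genes 16 were higher in lungs (median 1.96): Lpcat1, Sqle of sterol synthesis (4.20), Abca3, the elongase gene Elovl1 (4.02) and Scd1 (4.03), which desaturates fatty acids. Scd1 was uneven in heart, at 8.09, 6.96 and 10.85, against 13.00, 12.48 and 12.51 in lungs. The 6 higher in heart included the triglyceride synthesis genes Dgat2 (-3.96), Lpin1 (-2.20) and Gpam (-0.86), with Dgat1, Chpt1 (-1.96) and Pcyt1a.

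Most ribosomal protein genes divided by compartment, while more genes of ribosome biogenesis were called higher in heart than in lungs. Against the mitochondrial ribosome, cytosolic ribosomal protein genes were called higher in lungs for 41 of 61 kept genes, with a median of 0.47, or 0.54 after quantile normalization. These differences were small, and without mouse 1624 9 genes were called higher in lungs. Rpl3l, the striated muscle paralog, stood at 10.02, 9.68 and 9.42 in heart and 2.80, 2.77 and 2.69 in lungs, and its general form Rpl3 at 11.09, 10.92 and 11.18 in heart and 12.42, 12.38 and 12.35 in lungs. Rps2 was called higher in heart by 0.35 (adjusted p = 0.048), a call lost without any 1 mouse (0.077 to 0.18). For RNA polymerase I and ribosome biogenesis 18 of 40 genes were higher in heart and 3 in lungs (median -0.39), or 11 and 1 without mouse 1624. Polr1e (-2.59) and Polr1a (-1.67), polymerase I subunits, and the initiation factor gene Rrn3 (-1.40) were higher in heart. The 3 higher in lungs were the subunit gene Polr1c (0.85), Ttf1 (0.68, adjusted p = 0.013, but 0.052 without mouse 1624) and Ubtf, which opens ribosomal DNA for polymerase I (0.61, adjusted p = 0.0084, but 0.067 without mouse 1624).

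Myo1c, whose product includes nuclear myosin 1, was higher in lungs by all 4 of its probe sets. The brightest read 10.30, 10.72 and 10.95 in lungs and 9.31, 9.29 and 9.18 in heart, a difference of 1.39 (SE 0.18, adjusted p = 0.0018). The other 3 gave 1.36, 1.18 and 1.19 (adjusted p = 0.0019, 0.0028 and 0.015), and in none did the organs overlap. These probe sets read the gene and were not matched to its isoforms, so the nuclear form was not measured on its own. Of 20 kept myosin genes 14 were higher in lungs (median 0.50), led by Myo5c of epithelial secretion (3.61), the class I myosins Myo1d (2.93) and Myo1e (2.30), and Myo6 (2.16). The 3 higher in heart were Myh7, Myo18a (-0.59, adjusted p = 0.021, but 0.051 to 0.062 without any 1 mouse) and Myo7b (-0.59, adjusted p = 0.031, but 0.062 without mouse 1592). Among 13 chromatin and transcription partners of nuclear myosin 1, 10 were higher in lungs, such as Actg1 (1.70), Hdac1 (1.45) and Polr2a (1.08), and 2 higher in heart, Rrn3 and the acetyltransferase gene Kat2b (-0.60, adjusted p = 0.0076, but 0.059 without mouse 1624). The lung count was 6 without mouse 1624.

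Within gene families, some muscle members and their relatives were higher in opposite organs. Of 34 pairs of a muscle member and its relative, 28 had both members measured. In 14 of them the muscle member was called higher in heart and the relative higher in lungs, in 6 both were higher in heart, and in the other 8 the relative was not called or not tested. Over all kept genes 40.4% were called higher in lungs and 28.0% higher in heart, so these counts of relatives carry little by themselves. The widest gaps were Cdh2 against Cdh1 (-5.77 and 8.04) and Tbx20 against Tbx4 (-5.82 and 5.09). In protein synthesis the pair was Rpl3l and Rpl3 (-6.96 and 1.32) and Eef1a2 and Eef1a1 (-6.68 and 1.01), the elongation factor isoforms. In calcium pumping it was Atp2a2 and Atp2a3 (-3.28 and 3.34), in lipid metabolism Acacb and Acaca (-4.03 and 1.99) and Fabp3 and Fabp5 (-5.38 and 1.03), and in the cytoskeleton Actn2 and Actn1 (-6.08 and 1.88), Flnc and Flna (-3.82 and 1.58) and Tpm1 and Tpm4 (-3.81 and 1.37), although 1 of the 2 other kept Tpm1 probe sets was called higher in lungs. Caveolins, GATA factors, carbonic anhydrases and the cytochrome oxidase 6A subunits made up the rest, the last with the unstable call of Cox6a1. Both members were higher in heart for Cox7a1 and Cox7a2, Slc25a4 and Slc25a5, Ldhb and Ldha, Hk2 and Hk1, Pygm and Pygb, and Hspb7 and Hspb1. Slc25a5 (-0.58, adjusted p = 0.012) was lost without mouse 1624 (0.080) or 1593 (0.060), and Hspb1 (-0.76, adjusted p = 0.018) without mouse 1624 (0.079). The pairs were chosen for known muscle isoforms, so their direction on the heart side was given by the choice. The relatives were chosen with earlier results of these data known. Cdh1 and Tbx4 among them also belong to the lung lists above, so the lung side was not an open test either.

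**Figure D3:**
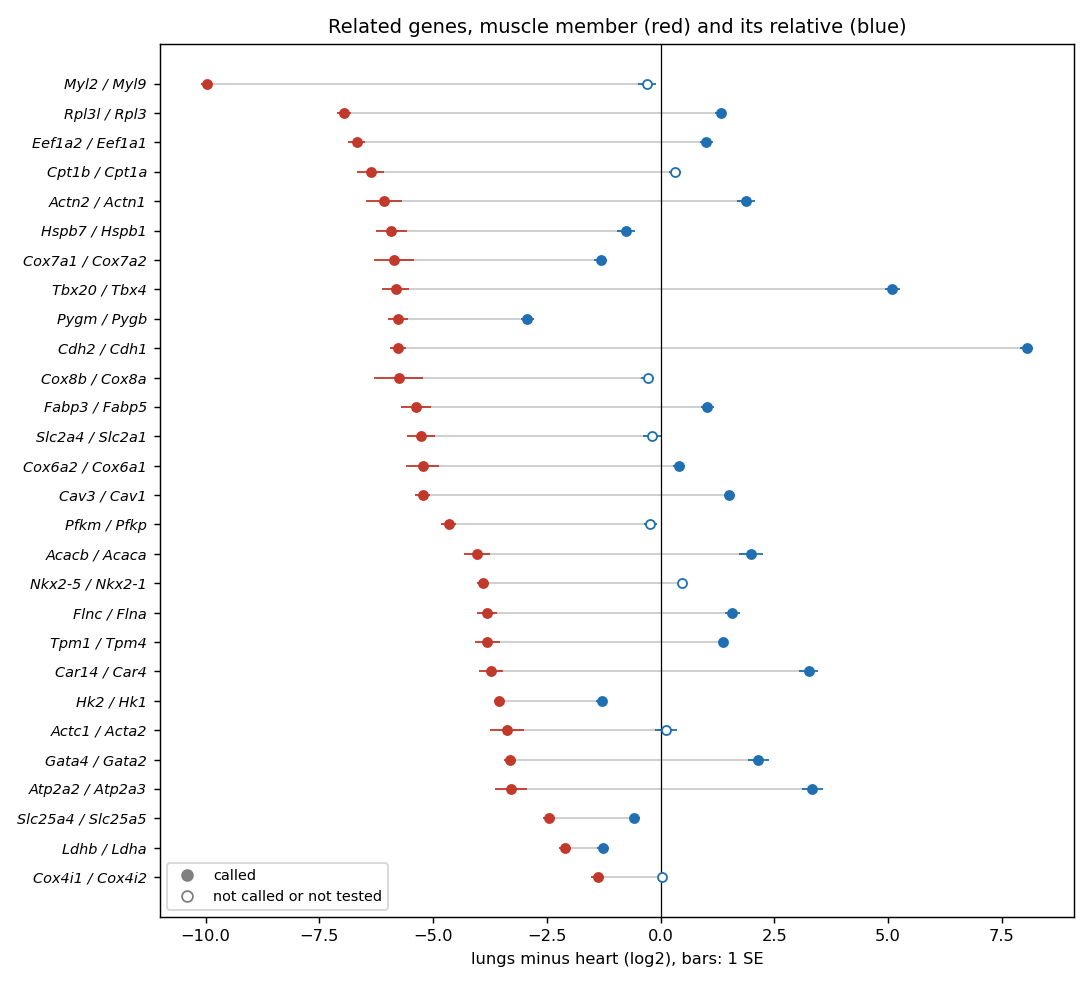
Difference of lungs minus heart (log2, bars 1 SE) for both members of 28 related gene pairs, muscle member in red and relative in blue, with open symbols for members not called or not tested. All muscle members lie left of 0, and the relatives spread from -2.93 for Pygb to 8.04 for Cdh1.

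Signalling, stress and growth genes gave smaller or mixed differences. In developmental signalling 30 of 46 kept genes were higher in lungs (median over 62 measured 0.64), with the growth factor gene Bmp5 (4.94), the receptor genes Fgfr2 (4.93) and Fgfr3 (3.88), and Acvrl1 of endothelium (3.43). Among the 46 genes, 12 lay below the filter in 1 organ. On the heart side Fgf13, an intracellular partner of sodium channels, stood at 9.95, 10.06 and 9.67 against 3.22, 2.96 and 3.00 in lungs, and Fgf9 differed by -2.27. In vascular tone 12 of 30 were higher in lungs and 10 in heart: Ptgs2 (2.87) and Edn1 on one side, the phosphodiesterase genes Pde1c (-5.05) and Pde2a (-2.86), the angiotensin receptor gene Agtr1a (-2.95) and Adm (-2.15) on the other. Of 32 kept cell cycle genes 23 were higher in lungs and none in heart (median over 42 measured 0.46). In 11 of the 32, 1 organ lay below the filter, so the filter largely set their direction. The lung count was 13 without mouse 1624 and 14 without mouse 1593, and Ccnd1 (1.86), Cdk6 (1.44) and the proliferation marker Mki67 (1.38) led. Of 28 heat shock genes 11 were higher in lungs and 9 in heart, the heart side holding the small heat shock proteins of muscle, Hspb7 (-5.92), Hspb3 (-4.98), Hspb2 (-3.35) and Hspb8 (-2.82), and their partner Bag3 (-2.02). Immediate early genes, which respond within minutes to a stimulus, were higher in lungs for 15 of 23 (median 0.82), and Fos stood at 8.33, 7.53 and 8.03 in lungs and 6.87, 4.16 and 7.15 in heart. Clock genes were higher in lungs for 7 of 18 and in heart for 3, with Per2 (1.37) and Per1 (1.16) the largest. Of 14 common reference genes 6 were higher in lungs, including Actb (1.29) and Ywhaz (1.42), and 4 in heart, Sdha (-2.53), Gapdh (-1.80), Pgk1 (-1.58) and Psmb2 (-0.98). Hprt, Rplp0, Eef2 and Tfrc were not called. For vascular tone, heat shock and common reference genes the counts lay near the background shares in both directions. For clock genes the lung count did so as well. These counts therefore say little about the lists as such.

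**Figure D4:**
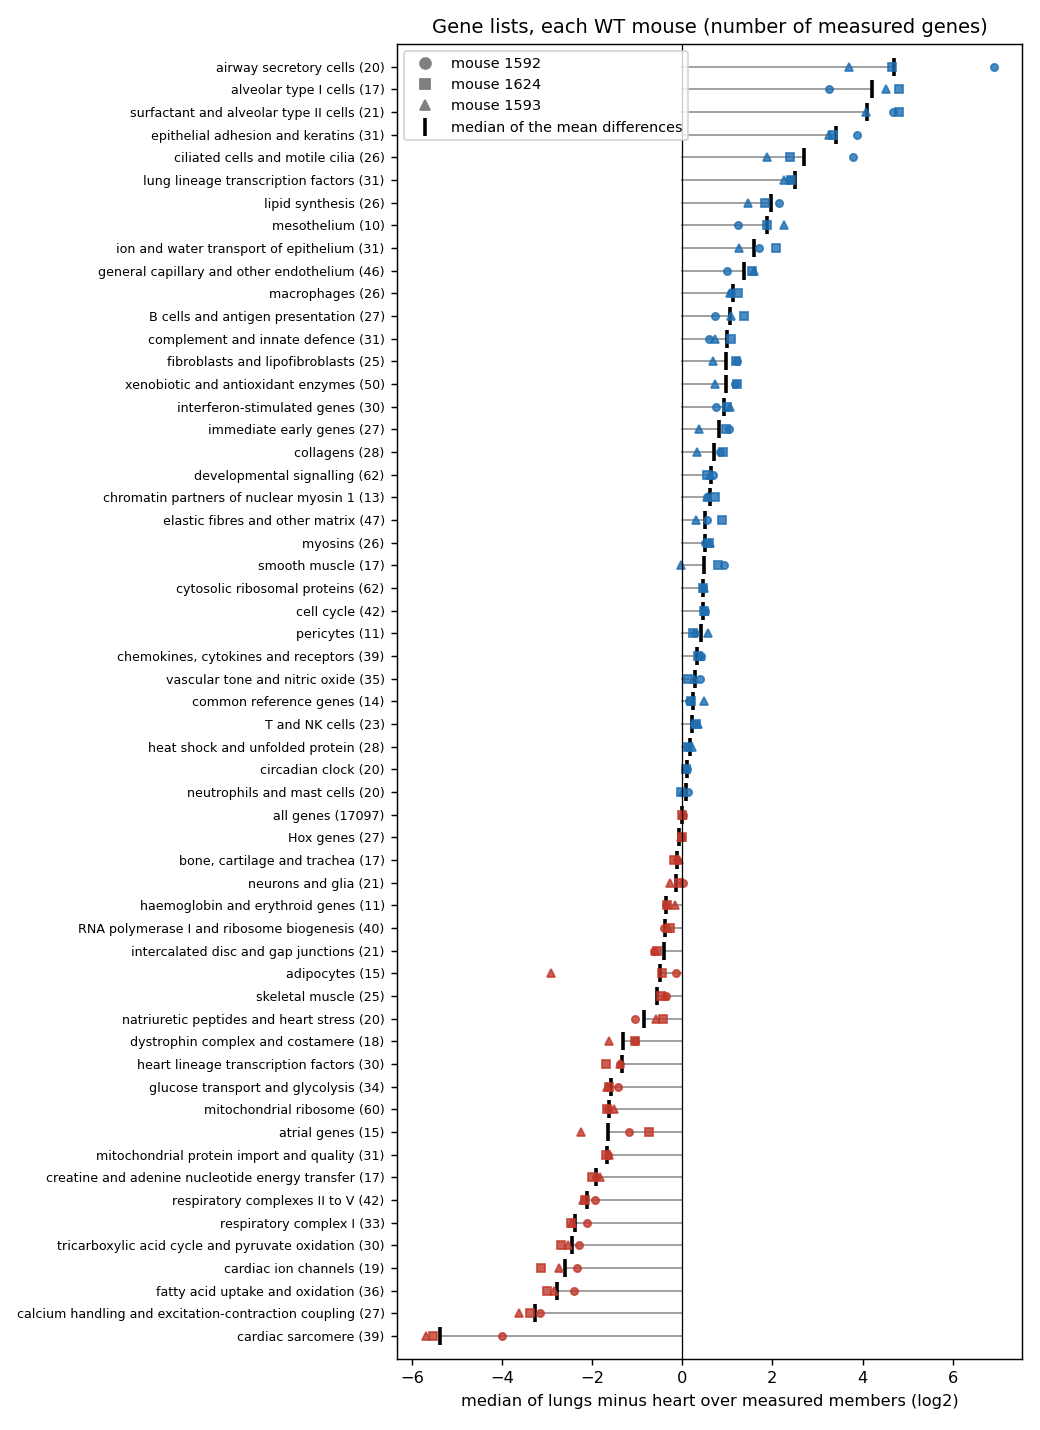
Median difference of lungs minus heart (log2) over the measured members of each gene list, with 1 symbol per WT mouse and a black bar for the median of the mean differences. Airway and alveolar lists lie at the top (medians 4.10 to 4.70) and the cardiac sarcomere at the bottom (-5.37), and the 3 mice differ most for airway secretory cells (3.70 to 6.92) and adipocytes (-2.92 to -0.15).

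A small set of transcripts varied widely between samples of the same organ. Over the 11318 kept genes the median range of the 3 lungs was 0.33 and of the 3 hearts 0.29, but 151 genes spanned at least 2 units among lungs and 70 among hearts. In 139 of the 151 the lungs of mouse 1592 were the highest. The 5 widest, named here after their values were seen, were Bpifb1, Reg3g, Bpifa1, Ltf and Nppa. Adipoq, the fat cell hormone, stood at 9.83, 3.99 and 3.45 in the lungs of mice 1592, 1624 and 1593 and at 4.72, 2.96 and 7.57 in heart. The mean over the adipocyte list was 7.32, 5.16 and 5.13 in lungs and 7.25, 7.08 and 7.74 in heart, so in mouse 1592 the lungs lay slightly above the heart. Of 11 kept adipocyte genes 6 were called higher in heart and none in lungs, namely Cox8b, Dgat2, Plin4 (-3.95), Cidea (-3.87), Fabp4 and Lpl (-2.89), several of which heart muscle makes itself. The sarcomere list averaged 7.18, 6.13 and 6.17 in lungs and 11.14, 11.06 and 11.35 in heart. The part of fat, atrial or venous muscle and large airway in these differences was not tested. Mesothelial genes, from the surface layer of both organs, were higher in lungs for 8 of 9 kept (median 1.87) and averaged 6.79, 5.25 and 5.32 in heart, the heart of mouse 1592 being highest. Of 25 measured skeletal muscle genes 12 were kept and 10 of these called higher in heart, among them Acta1, Ckm and Myl1 (-4.80), while Myh1, Myh2, Myh4 and Myod1 lay below the filter in both organs. Of 17 measured cartilage and bone genes 13 lay below it. Haemoglobin and erythroid genes were called in 2 of 6 kept, Fech (-1.94) and Slc25a37 (-0.67, adjusted p = 0.020, but 0.11 without mouse 1624 and 0.088 without mouse 1593), both also mitochondrial iron genes, and Hba-a1 and Alas2 were not called.

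**Figure D5:**
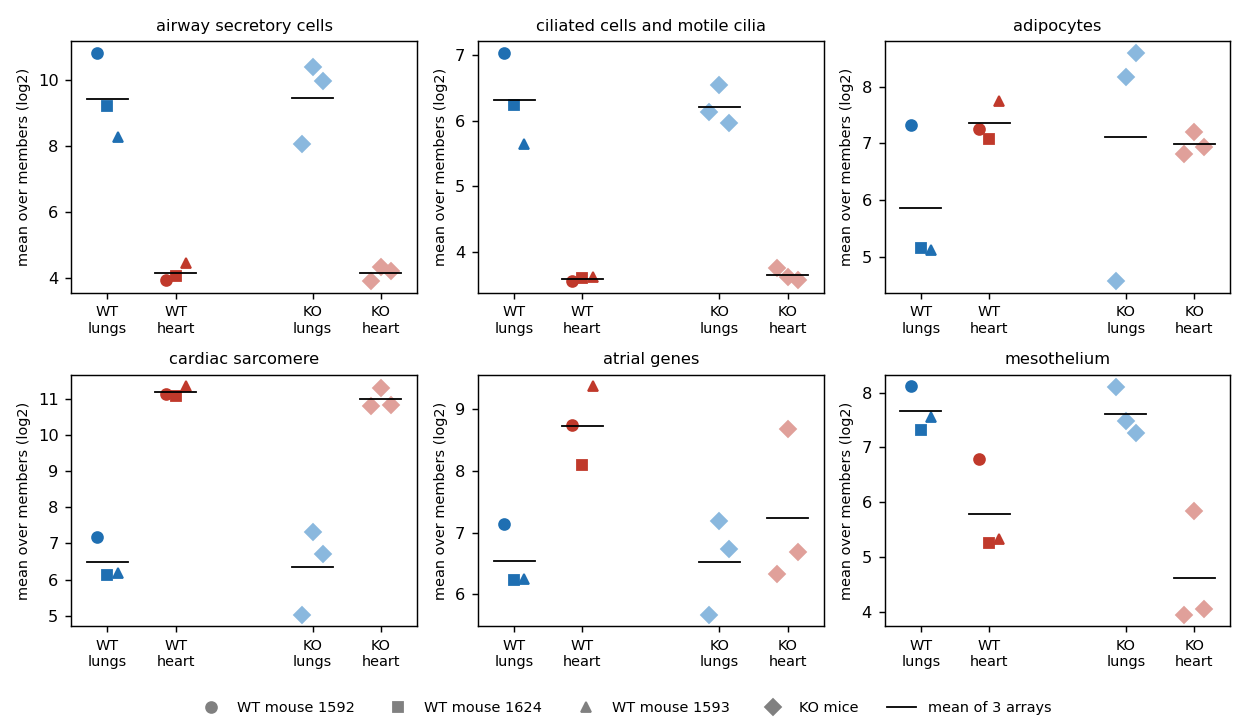
Mean log2 value over the measured members of 6 gene lists in each lungs and heart array of WT (dark) and KO mice (pale), with a bar for the mean of 3 arrays. The lungs of WT mouse 1592 (circle) are the highest WT lungs for airway (10.8), adipocyte (7.32) and sarcomere (7.18) genes, and the KO mice are shown for comparison.

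The same organ difference was measured in other animals, the 3 knockout mice, which share no array with the wild type. Of the 25319 probe sets kept there 8656 (34.2%) were called higher in lungs and 4868 (19.2%) higher in heart. Of the 4578 genes called higher in wild-type lungs 4558 (99.6%) had the same sign in knockout mice, and of the 3173 called higher in wild-type heart 3128 (98.6%). Of those past 1 unit 2476 of 2581 and 1743 of 1848 were called there as well. Sftpc differed by 8.93 in knockout mice against 9.93, Ager by 9.77 against 10.15, Myl2 by -10.13 against -9.97 and Pln by -6.62 against -6.42. Complex I genes had medians of -2.23 in knockout and -2.38 in wild-type mice, and sarcomere genes -5.50 and -5.37. Some other list medians lay further apart in the same order: mesothelial genes at 3.57 and 1.87, atrial genes at -0.48 and -1.65, and adipocyte genes at 0.09 and -0.49. The difference between genotypes, tested in limma as an interaction over 24912 probe sets, was called in 0 of them (0.0%), with 1670 at an unadjusted p below 0.05 and a smallest adjusted p of 0.72. Some named genes still had far-apart values: Myl4 differed by -2.35 in wild type and 2.04 in knockout mice, and Nppa by -7.20 and -3.59.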

How the data were processed

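RNA was isolated with Trizol and cRNA made from 6 ug of total RNA was hybridised to Affymetrix mouse arrays, per the labels' protocols. The deposited table holds log2 values that the authors made for each probe set, and the submitters' processing notes name Partek 6.4. Other steps, normalization among them, were not given in the sources used here. Of the 45141 entries 104 controls were left out; 28898 of the remaining 45037 probe sets had 1 gene in the platform annotation, 551 several and 15588 none. Arrays carry no read depth, so precision rests on how many were run.

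The values were used as deposited. limma 3.58.1 in R 4.3.3 fitted the 6 wild-type arrays with the mouse as a block (2 residual and 3.20 prior degrees of freedom), and p-values were adjusted over the kept probe sets by Benjamini and Hochberg. The pairing comes from the mouse number in each title: deviations of the lungs correlated with those of the same mouse's heart at 0.101, 0.170 and 0.0977 and with other hearts at -0.0306 or less. The deviations of the hearts were taken from the mean of their own group, so they cancel out. A positive value with the own heart therefore forces a negative one with another heart, and the negative values add no evidence of their own. Named are the Myo1c probe sets, the 4 markers, the 12 largest differences in each direction, up to 6 called members of each list with up to 4 in the opposite direction, and the pairs; uncalled or further members named beside a count, and promoter motifs, were chosen after their values were seen. The members and lists were chosen with earlier results of these data known. Alternatives changed the block, the arrays fitted, the scaling, the filter, the prior, the probe set rule and the mice used.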

Additional observations from a re-analysis of the deposited data

How the results depend on the processing

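The counts of 9454 probe sets higher in lungs and 6664 higher in heart stayed within 1.5 times under other fits: 9550 and 6783 with no replicate block, 8132 and 5881 with 12 arrays, 8527 and 6246 with 16, 9775 and 7421 with no filter, 8944 and 6235 with the filter on the overall mean and 9594 and 6738 with a trended prior. Quantile normalization gave 8210 and 7517 and centring each array on its median 8215 and 7513, a more even split. Requiring at least 1 unit left 4929 and 3733, by construction. Leaving out 1 mouse gave 6436 to 8979 and 4822 to 6407, with fewer arrays in the fit. The genotype interaction had 0 calls throughout.

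Of 410 named genes 40 lost the call under some alternative, 30 of them without some mouse. Signs turned for Dtna (-0.86) and for the medians of Hox genes (1.20) and heat shock genes (-0.059) with the mean of a gene's kept probe sets, for the medians of neutrophil and mast cell genes (-0.033) and clock genes (-0.018) after centring, and, without mouse 1593, for neutrophil and mast cell genes and Slc2a1. Over the mice left out the neutrophil and mast cell median ran from -0.025 to 0.15, Slc2a1 from -0.41 to 0.056 and Acta2 from -0.21, without mouse 1624, to 0.33. For Hox genes the alternative drops members below the filter; in the rest the cause was not tested. No detection calls come with the values, so signal over background is unknown and limits every difference whose dimmer side is low.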

Other observations

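A few genes varied between the mice in the same way in both organs; they were chosen after their values were seen. Of the kept genes 11 spanned at least 2 units among both the lungs and the hearts, and 5 of these ordered the 3 mice the same way in both organs. With 3 mice few orders are possible. The share of all kept genes ordered alike in both organs is not given here, so this count carries little by itself. Gdpd3, a phospholipase D family gene, stood at 8.32, 4.57 and 10.04 in the lungs of mice 1592, 1624 and 1593 and at 7.74, 4.41 and 9.21 in their hearts, while all 6 knockout arrays lay between 3.71 and 4.87. Tmem87a stood at 4.77, 4.91 and 7.39 in lungs and 4.06, 4.20 and 6.52 in heart, high in mouse 1593. Trim12a was low in that mouse, at 6.02, 6.11 and 2.45 in lungs and 5.03, 5.49 and 2.57 in heart. The chaperone gene Hspa1b and the chemokine gene Cxcl13 were the other two. Gdpd3, Hspa1b and Cxcl13 were also called higher in lungs.

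Many differences belong to probe sets without a gene in the annotation. Of 6754 such kept probe sets 2720 were called higher in lungs and 1446 higher in heart. Over all 24912 kept probe sets 37.9% were called higher in lungs and 26.8% higher in heart, and the lung count lies near that share. The largest were 1437028_PM_at, at 11.71, 12.34 and 12.01 in lungs and 3.79, 4.07 and 4.28 in heart, and 1455952_PM_at, at 3.53, 2.86 and 2.83 in lungs and 10.19, 10.30 and 10.43 in heart.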
